A study of Mus musculus with 24 samples.

Results

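Described here are 10 mouse genes, Mapk6 with its paralogue Mapk4 and 8 feedback inhibitors of the ERK pathway, namely Dusp4, Dusp5, Dusp6, Spry1, Spry2, Spry4, Spred1 and Spred2. They were taken by gene name from a count table of 28109 genes, in which each name had 1 row. The members were chosen by results already known from these libraries. Which contrast led to the choice is not stated, and siTead1/4 against siControl was taken to be it here and below. The values of that contrast are therefore given as a description, with no p-value, beside the share of all genes past the threshold (an adjusted p of 0.05 with edgeR and an absolute log2 fold change of 1). Changes over differentiation in siControl cells and differences between the 2 cell types were tested. These tests reuse the siControl libraries of the siTead1/4 contrast, so they are not independent of how the members were chosen.

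RNA-seq was performed on C2C12 cells, an established line of the C3H strain, and on primary myoblasts (PMs) isolated from wild-type C57BL/6 mice of 3 to 4 weeks of age. Both were transfected with a control siRNA (siControl, labelled as luciferase and elsewhere described as non-targeting) or with siRNA pools against Tead1 and Tead4 (siTead1/4), and no other allele or agent was used. Day 0 cells were undifferentiated and collected 24 h after transfection, and days 3 and 6 were counted in medium with 2% horse serum. Each of the 12 groups held 2 biological replicates, or 24 libraries in all. The cell types also differed in strain, growth medium and dish coating, so a difference between them cannot be told apart from these. The siRNA silencing is transient and partial, and PMs are a primary culture that may hold other cells of muscle.

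Mapk6 encodes ERK3 and Mapk4 encodes ERK4, atypical MAP kinases whose activation loop carries a single phosphorylation site and which act through the kinase MK5 (Mapkapk5). The classical ERKs relay signals from growth factor receptors through Ras, Raf and MEK, and in myoblasts this signalling is known for sustaining proliferation and holding back differentiation. Active ERK induces its own inhibitors: the dual-specificity phosphatases DUSP4, DUSP5 and DUSP6 remove its phosphates, Sprouty proteins act on the receptor to Ras segment, and Spred proteins inhibit Ras together with neurofibromin. Transcripts of these inhibitors are therefore often used as readouts of ERK activity, although protein and phosphorylation were not measured here.

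The libraries held between 25453830 and 52784510 counts, with a median of 40147146 in C2C12 cells and 39204772 in PMs. Replicates correlated at 0.981 to 0.993 on the log2 scale across genes. The replicates of siTead1/4 C2C12 cells were the furthest apart at each day, with SDs of the log2 difference between 0.629 and 0.737 against 0.417 to 0.570 elsewhere, and SEs were larger in C2C12 cells. Levels below are counts scaled to library size (CPM) after TMM scaling. Summed Tead1 and Tead4 CPM in the siTead1/4 replicates stood at 29.7% and 7.86% of the siControl mean at day 0 in C2C12 cells and at 37.1% and 27.3% in PMs. By day 6 these shares were 49.2% and 59.8% in C2C12 cells and 46.1% and 32.9% in PMs. The sum does not show how far each transcript was lowered.

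The culture state was read from marker lists. The summed level of 8 myogenic genes (Pax7, Myf5, Myod1, Myog, Des, Ckm, Acta1 and Myh3) ranged from 979 to 1109 CPM in siControl C2C12 cells at day 0 and from 15180 to 18483 CPM at days 3 and 6, and from 9745 to 10399 and 26803 to 32456 CPM in siControl PMs. C2C12 cells given the Tead1 and Tead4 siRNAs had lower sums, 5993 to 7876 CPM at day 3. At day 6 their sums were 7854 to 14826 CPM. PMs given these siRNAs had 27300 to 28972 CPM at day 3, against 31145 to 32456 CPM in siControl PMs. At day 6 they had 25129 to 25508 CPM. At day 0 the sums with these siRNAs overlapped those of siControl in both cell types. The sum of 7 cell cycle genes was 2311 to 2420 CPM in siControl C2C12 cells and 1810 to 1903 CPM in siControl PMs at day 0, against 115 to 442 CPM and 83.5 to 205 CPM later. The summed level of 6 fibroblast genes in siControl PMs lay between 281 and 397 CPM at day 0 and between 3825 and 5568 CPM at day 6. The same ranges for siControl C2C12 cells were 910 to 1195 CPM and 1057 to 1081 CPM, and Thy1 in those libraries was at or below 3 counts per library at every day. Over all groups Schwann cell, endothelial and macrophage lists summed to at most 29.4, 16.1 and 6.29 CPM. Emcn was at 0 in the 6 C2C12 groups, and Ptprc and Emr1 were at or below 3 counts per library in all 12 groups. The changes over days described below stand beside these shifts in cell cycle, myogenic and, in PMs, fibroblast sums, and their part was not tested. Differences between the siRNAs at days 3 and 6 stand beside the lower myogenic sums, whose part was not tested either. In bulk RNA, fewer cells of a type and less RNA per cell cannot be told apart.

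Mapk6 was the member with the largest fitted decrease in siTead1/4 cells, and it was seen at day 0 in both cell types. In siControl C2C12 cells at day 0 Mapk6 stood at 310 and 320 CPM in the replicates, and in siTead1/4 cells at 106 and 112 CPM. In siControl PMs it stood at 371 and 374 CPM, and in siTead1/4 PMs at 150 and 176 CPM. No siTead1/4 library reached its siControl counterparts, and 33.7% and 35.7% of the siControl mean was left in the C2C12 replicates and 40.4% and 47.2% in the PM replicates. The fitted log2 fold changes were -1.53 (SE 0.23) in C2C12 cells and -1.20 (SE 0.11) in PMs, a 2.89-fold and a 2.30-fold lower level. In this contrast 0.438% of 15303 tested genes passed in C2C12 cells and 2.6% of 16144 in PMs. The C2C12 value was -1.55 and -1.52 with either siControl replicate left out at all days, and -1.53 when only the 4 libraries compared were fitted. Mapk6 was past the threshold in C2C12 cells in the reported fit but in none of these fits, although its fold change stayed alike. Beside these day 0 values, the cell cycle sum was 1331 to 1345 CPM in siTead1/4 PMs and 1695 to 2327 CPM in siTead1/4 C2C12 cells, and its part was not tested.

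**Figure D1:**
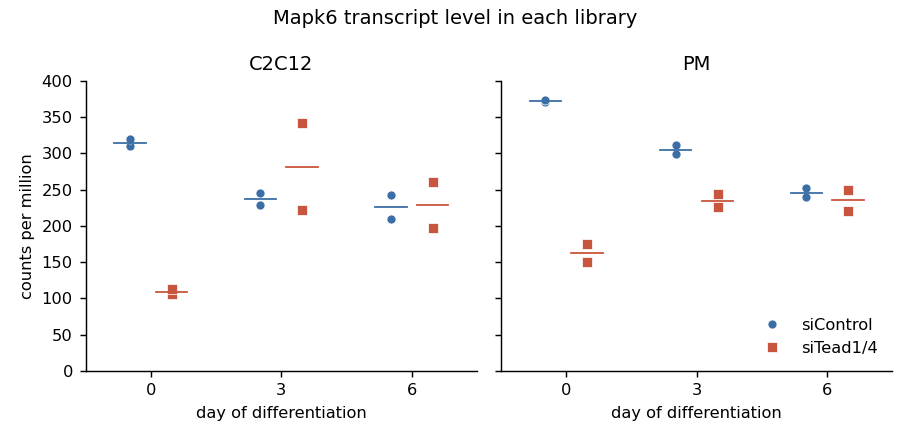
Mapk6 level in CPM after TMM scaling (y axis, from 0) against day of differentiation (x axis) in C2C12 cells and primary myoblasts (PM). Each point is 1 library and each bar the mean of 2 replicates. At day 0 the siTead1/4 libraries lie between 106 and 176 CPM and the siControl libraries between 310 and 374 CPM, while at day 6 the groups overlap in both cell types.

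At day 3 the siTead1/4 C2C12 replicates were at 222 and 342 CPM around siControl values of 245 and 229 CPM, and at day 6 at 260 and 197 CPM around 243 and 210 CPM. The log2 fold changes were 0.22 (SE 0.22) and 0.02 (SE 0.22), and the groups overlapped at both days. In PMs the siTead1/4 replicates were at 244 and 226 CPM at day 3, below the siControl values of 300 and 311 CPM, and at 221 and 249 CPM at day 6, around 240 and 252 CPM. The corresponding log2 fold changes were -0.39 (SE 0.11) and -0.06 (SE 0.11). Among all genes, 1.27% and 0.0457% passed in C2C12 cells at days 3 and 6 and 3.3% and 0.743% in PMs. Of the 3 days, only day 0 had siTead1/4 values below the siControl values in both cell types.

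The 5' flank of Mapk6 is printed as the sequence of the member with the lowest siTead1/4 fold change, with that of Spry1, the member with the largest change over differentiation. RefSeq promoter windows (GRCm38.p6) were at hand for 7 of the 10 members, in 8 windows, and each matched the mm9 genome of the count table at a single place. The printed 250 bases end just before the annotated start, at chr9:75257824-75258073 on the minus strand for Mapk6, where the deposited table has the gene at 75216869 to 75257812, and at chr3:37538619-37538868 on the plus strand for Spry1, whose gene spans 37538869 to 37543520. Capitals mark matches on either strand to the Tead-binding MCAT element (CATTCC), the E-box CAGCTG of myogenic bHLH factors and the CRE core (TGACGT).
Mapk6: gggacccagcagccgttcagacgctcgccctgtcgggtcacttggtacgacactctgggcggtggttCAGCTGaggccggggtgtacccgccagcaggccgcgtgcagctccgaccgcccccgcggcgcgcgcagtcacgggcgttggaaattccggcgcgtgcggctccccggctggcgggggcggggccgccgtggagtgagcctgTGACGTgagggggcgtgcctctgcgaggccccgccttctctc
Spry1: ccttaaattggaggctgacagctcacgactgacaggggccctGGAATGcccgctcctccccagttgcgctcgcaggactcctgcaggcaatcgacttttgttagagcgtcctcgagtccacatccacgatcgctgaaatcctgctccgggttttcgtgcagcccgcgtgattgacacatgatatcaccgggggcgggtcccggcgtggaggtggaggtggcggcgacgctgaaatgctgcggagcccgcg

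In the Mapk6 window the E-box began at position -183 and the CRE core at position -42, counted from the first transcribed base, and no CATTCC was present. A further Mapk6 start lies inside the gene and its window held an E-box at -20 and no CATTCC. The Spry1 window held CATTCC on the reverse strand, as GGAATG, at -208. Over windows of 300 bases (250 before and 50 after the start), CATTCC occurred in 14.7% of 32851 promoters, CAGCTG in 16.3% and TGACGT in 7.51%, so each of these matches is common. Neither the AP-1 site TGANTCA, in 7.81% of promoters, nor the ETS site CCGGAAG, in 8.86%, was found in the windows of the members. These matches are descriptions of sequence and not of binding.

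In siControl cells Mapk6 was highest at day 0 and lower later, but by less than 2-fold. In C2C12 cells the day 0 mean was 315 ± 6.45 CPM (SD, n = 2), followed by 237 ± 11.2 CPM at day 3 and 226 ± 23.2 CPM at day 6. These day 3 and day 6 differences, -0.45 (SE 0.22) and -0.52 (SE 0.22), did not pass the test (edgeR quasi-likelihood test, adjusted p = 0.137 and 0.0876). In PMs the mean went from 372 ± 2.13 CPM to 305 ± 8.00 CPM and 246 ± 9.08 CPM, with log2 fold changes of -0.34 (SE 0.11, adjusted p = 0.0182) and -0.66 (SE 0.11, adjusted p = 0.000327), both below the fold threshold. The change from day 0 did not differ detectably between the cell types at day 3 (0.12, SE 0.25, adjusted p = 0.826) or day 6 (-0.12, SE 0.25, adjusted p = 0.836). The siControl day 0 libraries also entered the contrast the members were chosen on. The later fall of Mapk6 is therefore not independent of that choice.

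In siTead1/4 cells Mapk6 went the other way, from the low day 0 values upward. In C2C12 cells the log2 fold change against day 0 was 1.30 (SE 0.23, adjusted p = 0.00189) at day 3 and 1.03 (SE 0.23, adjusted p = 0.00613) at day 6. The day 6 value fell to 0.84, under the fold threshold, without siTead1/4 replicate 1. In PMs it was 0.47 (SE 0.11) at both days, with adjusted p = 0.00359 and 0.00323. These changes use the same siTead1/4 day 0 libraries as the contrast the members were selected on and are no independent support for it.

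Ordered by mean level, the 12 groups ran from siControl PMs at day 0, at 372 CPM, to siTead1/4 C2C12 cells at day 0, at 109 CPM, with siTead1/4 PMs at day 0 next lowest at 163 CPM. The 9 other group means lay between 226 and 315 CPM, and within these each group overlapped the next in order. PMs and C2C12 cells treated with siControl did not differ detectably in Mapk6 at day 0 (0.24, SE 0.18, adjusted p = 0.301), day 3 (0.36, SE 0.18, adjusted p = 0.103) or day 6 (0.12, SE 0.18, adjusted p = 0.625).

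Mapk4 was by far the scarcer of the pair. Per kilobase of gene length, group means of Mapk4 lay between 0.0735 and 0.894 CPM, whereas those of Mapk6 lay between 23.6 and 80.5 CPM. Single libraries held 7 to 267 Mapk4 counts, so counting error is a sizeable part of its spread. In siControl C2C12 cells the Mapk4 level went from 0.873 and 0.675 CPM at day 0 to 3.26 and 3.34 CPM at day 3 and 5.15 and 4.54 CPM at day 6. All day 3 and day 6 values exceeded those of day 0, and Mapk4 rose by 2.06 (SE 0.35, adjusted p = 0.00122) and 2.61 (SE 0.35, adjusted p = 0.000278) on the log2 scale. The day 3 call was lost with either siControl replicate left out (adjusted p = 0.0619 and 0.118).

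In siControl PMs Mapk4 stood at 1.25 and 0.958 CPM at day 0, 1.85 and 2.25 CPM at day 3 and 0.938 and 1.89 CPM at day 6. The day 6 libraries overlapped those of day 0, and neither change passed the threshold (0.83, adjusted p = 0.0422, and 0.28, adjusted p = 0.468), but the day 3 change passed without siControl replicate 1 (1.18, adjusted p = 0.0291). The change to day 6 in PMs minus that in C2C12 cells was -2.30 log2 units (SE 0.47, adjusted p = 0.00244), and at day 6 Mapk4 was 3.42-fold lower in PMs (log2 -1.78, SE 0.32, adjusted p = 0.000399). Without siControl replicate 1 in both cell types these became -1.76 (adjusted p = 0.251) and -1.27 (adjusted p = 0.1), and without replicate 2 they became -2.96 and -2.48, still past the threshold. In siTead1/4 PMs Mapk4 was at 1.97 and 1.90 CPM at day 0, 4.48 and 4.04 CPM at day 3 and 2.37 and 2.36 CPM at day 6, above both siControl libraries on each day, whereas in C2C12 cells it was below them at days 0 and 6. The log2 fold changes against siControl were 0.79, 1.04 and 0.74 in PMs and -0.90, 0.09 and -0.86 in C2C12 cells, with SEs of 0.30 to 0.38.

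Over differentiation of siControl cells Spry1 rose in both cell types and Dusp6 rose in PMs by day 6, while Dusp4, Dusp5 and Spry4 fell in both cell types at day 3. In C2C12 cells 5 of the 10 members passed at day 3, Mapk4 and Spry1 upward and Dusp4, Dusp5 and Spry4 downward, beside 28.7% of all genes tested, and 6 passed at day 6, with Spred1 added downward, beside 31.1%. In PMs 7 passed at day 3, Spry1 upward and Dusp4, Dusp5, Spry2, Spry4, Spred1 and Spred2 downward, beside 32.3% of all genes, and 4 passed at day 6, Dusp6 and Spry1 upward and Spry2 and Spred2 downward, beside 35.5%. Between days 6 and 3 no member passed in C2C12 cells (edgeR, with 0 members at an unadjusted p below 0.05 and 0 called by DESeq2), where 0% of all genes passed, and Dusp6 passed in PMs, beside 2.8%. The counts at day 3 and day 6 in C2C12 cells dropped to 2 and 3 with either siControl replicate left out at all days, which ended the calls of Dusp4 and Spry4 at both days, Mapk4 at day 3 and Spred1 at day 6.

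**Figure D2:**
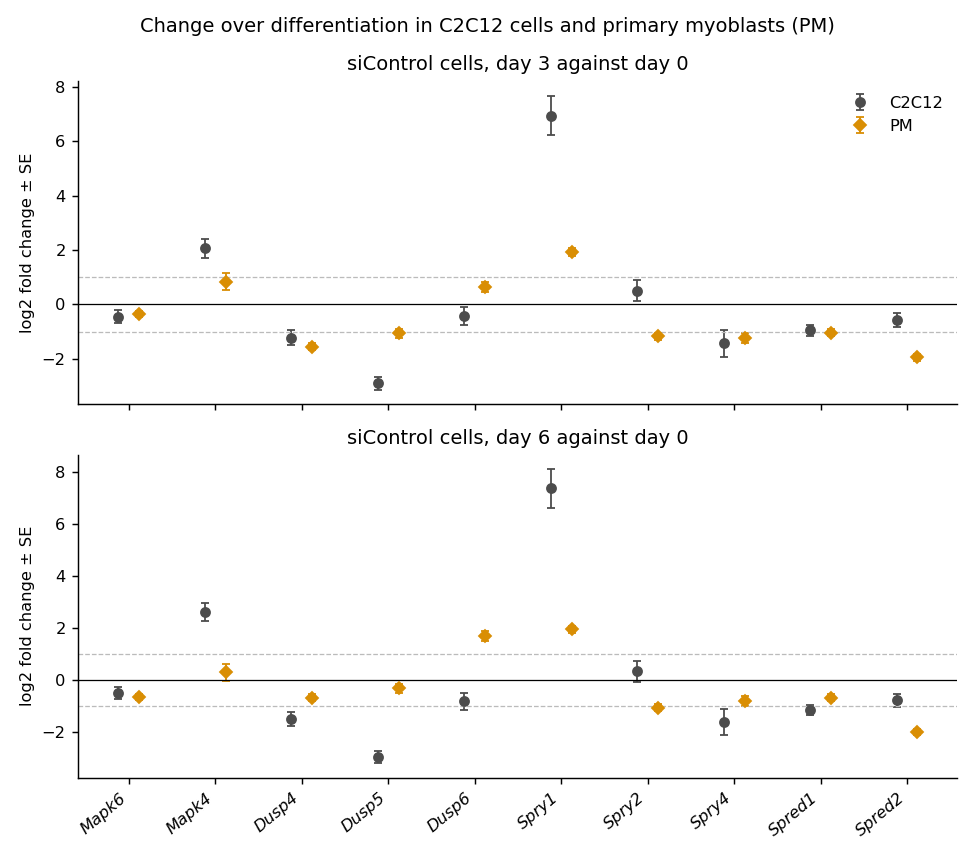
Log2 fold change of each member in siControl cells against day 0 (y axis, edgeR estimate with its SE as bars) at day 3 (upper panel) and day 6 (lower panel), in C2C12 cells (circles) and PMs (diamonds). Dashed lines mark a log2 fold change of 1 in either direction. Spry1 reaches 7.38 in C2C12 cells at day 6 and 1.95 in PMs, Dusp5 lies lower in C2C12 cells, and Dusp6, Spry2 and Spred2 part between the cell types.

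Dusp5, a nuclear phosphatase specific to ERK, showed the deepest fall of the 3 phosphatase members, in C2C12 cells. It went from 88.7 and 70.4 CPM at day 0 to 12.9 and 9.05 CPM at day 3 and 10.3 and 10.4 CPM at day 6, with no overlap. It fell by 2.90 (SE 0.23, adjusted p = 1.36e-05) and 2.98 (SE 0.24, adjusted p = 1.03e-05) on the log2 scale, that is 7.45-fold and 7.87-fold. In PMs Dusp5 started lower, at 34.3 and 34.9 CPM, was 13.8 and 20.5 CPM at day 3 and returned to 26.1 and 31.8 CPM at day 6. It fell by 1.07 (SE 0.18, adjusted p = 0.00045) at day 3, a value of -0.82 without siControl replicate 1, and stood at -0.32 (SE 0.18, adjusted p = 0.135) at day 6.

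The Dusp5 change differed between the cell types by 1.85 log2 units at day 3 (SE 0.28, adjusted p = 0.000262) and by 2.68 at day 6 (SE 0.29, adjusted p = 5.53e-06). The day 3 difference was lost without siControl replicate 2 (1.48, adjusted p = 0.0616). The order of the cell types also turned. Dusp5 was 2.30-fold lower in PMs at day 0 (log2 -1.20, SE 0.20, adjusted p = 0.000139) and 2.79-fold higher at day 6 (log2 1.48, SE 0.21, adjusted p = 3.05e-05). In siTead1/4 cells the day 0 C2C12 libraries, at 44.0 and 52.9 CPM, lay below both siControl libraries, and those of PMs, at 37.1 CPM in both replicates, lay slightly above theirs. The log2 fold changes at day 0 were -0.72 (SE 0.22) and 0.09 (SE 0.17).

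Dusp4, a nuclear phosphatase that acts on ERK, JNK and p38, was lower at day 3 in both cell types. Its level in siControl C2C12 cells went from 94.2 and 92.9 CPM to 46.7 and 36.0 CPM at day 3 and 30.6 and 36.8 CPM at day 6, a log2 change of -1.22 (SE 0.28, adjusted p = 0.00693) and -1.51 (SE 0.29, adjusted p = 0.00206). Without siControl replicate 1 or 2 the adjusted p at day 3 was 0.108 or 0.221 and at day 6 0.113 or 0.0614. In siControl PMs Dusp4 fell from 79.7 and 80.8 CPM to 28.6 and 28.4 CPM at day 3 (log2 -1.55, SE 0.14, adjusted p = 5.67e-06) and was 55.0 and 48.2 CPM at day 6 (log2 -0.70, SE 0.14, adjusted p = 0.00106). The part of the change that came back between days 3 and 6 in PMs was 0.85 on the log2 scale (SE 0.14, adjusted p = 0.00912).

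In siTead1/4 C2C12 cells Dusp4 was at 43.2 and 57.7 CPM at day 0, below siControl, and at 71.3 and 123 CPM at day 3, above both siControl values. The log2 fold changes against siControl were -0.89 (SE 0.28) at day 0 and 1.20 (SE 0.28) at day 3. The latter was 1.57 without siTead1/4 replicate 1. In PMs the Dusp4 fold change against siControl lay between -0.21 and 0.20 on every day.

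Dusp6, a cytoplasmic phosphatase specific to the classical ERKs, rose in PMs and did not pass in C2C12 cells. In siControl PMs it went from 38.3 and 32.1 CPM at day 0 to 44.9 and 69.8 CPM at day 3 and 120 and 117 CPM at day 6. It rose 3.22-fold by day 6 (log2 1.69, SE 0.18, adjusted p = 1.99e-05). The day 3 change of 0.65 (adjusted p = 0.0103) was under the fold threshold, and 1.07 and past it without siControl replicate 1. Its rise between days 3 and 6 was 1.04 (SE 0.18, adjusted p = 0.0114), a call lost with either siControl replicate left out (adjusted p = 0.17 and 0.0502). In C2C12 cells treated with siControl, Dusp6 was at 52.8 and 73.8 CPM at day 0 and 29.1 and 44.2 CPM at day 6, a change of -0.83 that did not pass (SE 0.33, adjusted p = 0.0625). The difference in the day 6 change was 2.54 log2 units (SE 0.40, adjusted p = 0.000271), and at day 6 Dusp6 was 3.24-fold higher in PMs (log2 1.70, SE 0.29, adjusted p = 0.000196).

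With siTead1/4, Dusp6 in PMs was at 67.6 and 65.4 CPM at day 0, above siControl, and at 76.4 and 84.1 CPM at day 6, below siControl. Its log2 fold changes against siControl were 0.91 (SE 0.18) at day 0, 0.23 (SE 0.18) at day 3 and -0.56 (SE 0.18) at day 6. The day 0 value was 1.05 without siControl replicate 1. In siTead1/4 PMs Dusp6 at day 6 against day 0 was 0.21 (SE 0.18, adjusted p = 0.327). In C2C12 cells the Dusp6 values of siTead1/4 and siControl libraries overlapped on each day.

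**Figure D3:**
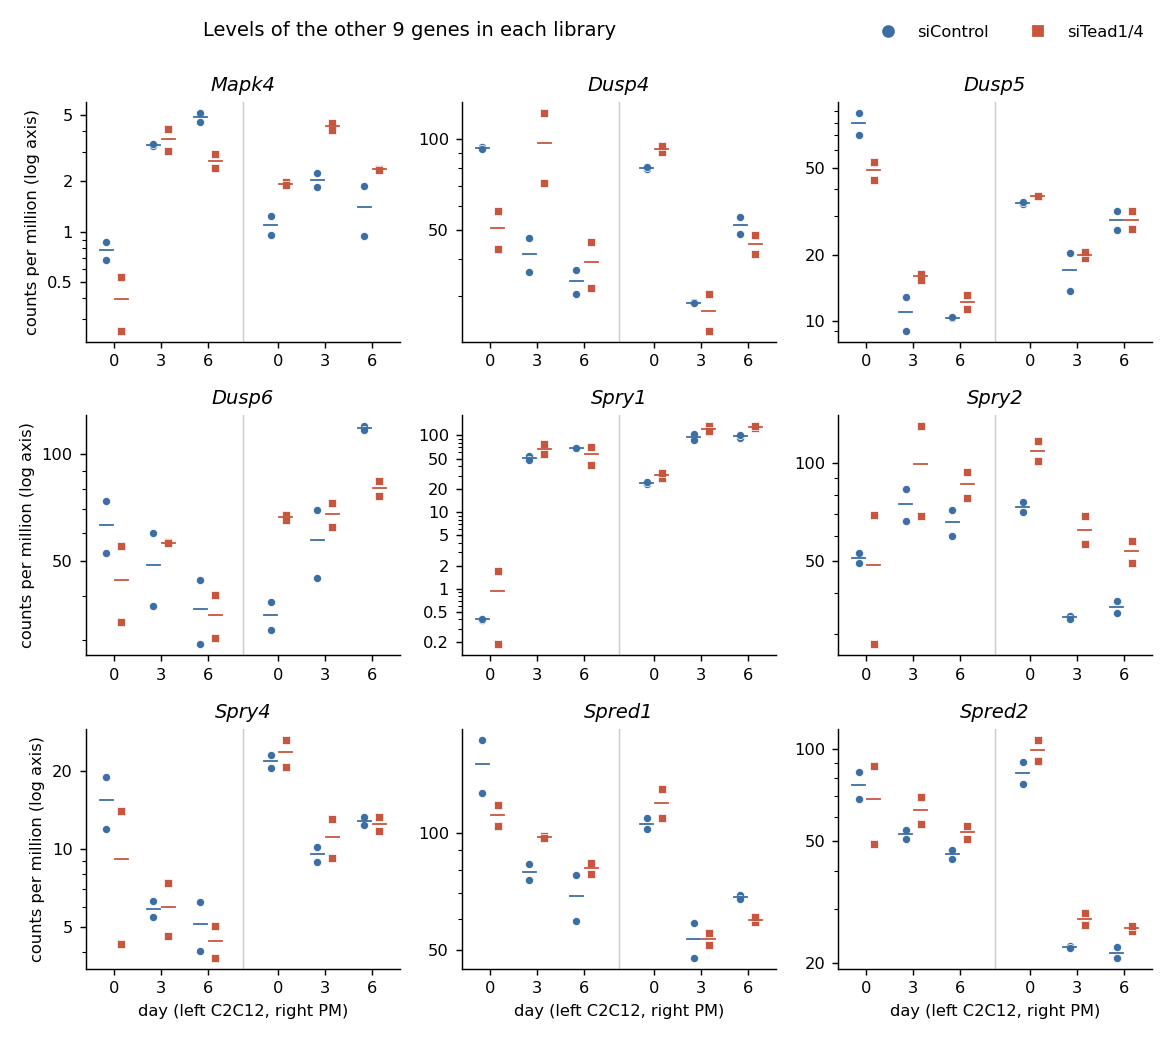
Levels of the 9 other members in CPM (y axis, log scale with its own range for each gene) by day (x axis), with C2C12 cells left and PMs right of the grey line. Each point is 1 library and each bar the mean of 2 replicates. Spry1 in C2C12 cells goes from 1.68 CPM or less at day 0 to 41.4 CPM or more in all later libraries, and Dusp5 in siControl C2C12 cells from 70.4 CPM or more to 12.9 CPM or less.

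Spry1, a Sprouty gene known as a marker of quiescent satellite cells, had the largest change of the members. In siControl C2C12 cells it was close to the detection limit at day 0, with 14 and 23 counts or 0.394 and 0.409 CPM. It then reached 54.7 and 48.0 CPM at day 3 and 69.4 and 68.8 CPM at day 6. The fitted log2 fold changes were 6.95 (SE 0.73, adjusted p = 6.9e-05) and 7.38 (SE 0.74, adjusted p = 4.6e-05). Because so few counts lie under the day 0 mean, the size of these folds is less certain than their direction.

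In siControl PMs Spry1 was already at 23.3 and 24.9 CPM at day 0, and it rose to 104 and 87.0 CPM at day 3 and 91.9 and 103 CPM at day 6, with log2 fold changes of 1.93 (SE 0.13, adjusted p = 1.09e-06) and 1.95 (SE 0.13, adjusted p = 8.4e-07). At day 0 it was 59.4-fold higher in PMs than in C2C12 cells (log2 5.89, SE 0.53, adjusted p = 1.38e-07). Later the difference was within 0.89 log2 units and did not pass (adjusted p = 0.0669 at day 3 and 0.329 at day 6). The change from day 0, PMs minus C2C12 cells, differed by -5.00 log2 units at day 3 (SE 0.64, adjusted p = 4.62e-05) and by -5.40 at day 6 (SE 0.64, adjusted p = 1.67e-05). The day 3 difference missed the threshold without siControl replicate 2 (-4.94, adjusted p = 0.0589).

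In siTead1/4 cells the Spry1 pattern over days was alike in direction. It was at 0.188 and 1.68 CPM (8 and 46 counts) at day 0 in C2C12 cells, 57.0 and 76.3 CPM at day 3 and 41.4 and 71.8 CPM at day 6. The log2 fold changes against siTead1/4 day 0 were 6.19 (SE 0.70, adjusted p = 0.00016) and 5.99 (SE 0.69, adjusted p = 0.000157). Since the day 0 replicates differed so much, the day 3 value was 5.52 without siTead1/4 replicate 1 and 8.20 without replicate 2, and the day 6 value 7.75 without replicate 2. In siTead1/4 PMs Spry1 lay above siControl on each day, by 0.32, 0.35 and 0.40 on the log2 scale (SE 0.13 at each), at 27.9 and 32.6 CPM, 131 and 113 CPM, and 124 and 132 CPM. In C2C12 cells its day 0 fold change against siControl was 1.10 (SE 0.74), and 2.05 without siTead1/4 replicate 1.

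Spry2, the Sprouty gene with the highest level per kilobase at day 0 (group means of 24.5 and 35.2 CPM per kilobase in siControl C2C12 cells and PMs), fell in PMs and did not pass in C2C12 cells. In siControl PMs it went from 70.9 and 76.1 CPM to 34.1 and 33.4 CPM at day 3 and 37.9 and 34.7 CPM at day 6, a fall of 1.18 (SE 0.13, adjusted p = 2.31e-05) and 1.08 (SE 0.13, adjusted p = 3.73e-05) on the log2 scale. The day 6 value was -0.98 without siControl replicate 2. By contrast, siControl C2C12 cells had 49.4 and 52.9 CPM at day 0, 83.0 and 66.7 CPM at day 3 and 71.9 and 59.9 CPM at day 6, higher later in every library, with log2 changes of 0.51 and 0.33 (SE 0.40 at each, adjusted p = 0.339 and 0.54). The changes differed between the cell types, PMs minus C2C12 cells, by -1.67 log2 units at day 3 (SE 0.45, adjusted p = 0.018) and -1.38 at day 6 (SE 0.45, adjusted p = 0.0461). Both differences were lost with either siControl replicate left out, the day 3 one at adjusted p = 0.505 and 0.353 and the day 6 one at 0.539 and 0.482.

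In siTead1/4 PMs the Spry2 libraries were at 101 and 116 CPM at day 0, 68.7 and 56.3 CPM at day 3 and 57.9 and 49.5 CPM at day 6, above both siControl libraries on each day. The log2 fold changes were 0.56, 0.88 and 0.57 (SE 0.13 at each). Without siTead1/4 replicate 2 the day 3 value was 1.01. In C2C12 cells the 2 siTead1/4 replicates of Spry2 were far apart, at 27.9 and 69.6 CPM at day 0 and 130 and 68.8 CPM at day 3.

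Spry4, at 1.12 to 4.76 CPM per kilobase over the siControl group means, went down in both cell types. Its C2C12 siControl libraries were at 11.9 and 19.0 CPM at day 0, 6.30 and 5.49 CPM at day 3 and 4.05 and 6.25 CPM at day 6, a log2 change of -1.43 (SE 0.50, adjusted p = 0.043) and -1.63 (SE 0.50, adjusted p = 0.0245). Neither held without siControl replicate 1 (adjusted p = 0.186 and 0.222) or 2 (adjusted p = 0.487 and 0.227), and the day 3 value was -0.96 without replicate 2. In siControl PMs it fell from 20.6 and 23.1 CPM to 8.92 and 10.2 CPM at day 3 (log2 -1.24, SE 0.19, adjusted p = 0.00022) and was 13.3 and 12.4 CPM at day 6 (log2 -0.83, SE 0.19, adjusted p = 0.00268). At day 6 Spry4 was 2.51-fold higher in PMs than in C2C12 cells (log2 1.33, SE 0.41, adjusted p = 0.0165), a call lost without siControl replicate 1 (0.98, adjusted p = 0.36) or 2 (1.69, adjusted p = 0.114). The siTead1/4 and siControl libraries of Spry4 overlapped on each day in PMs.

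The Spred genes were both lower in later siControl libraries. Spred1, mutated in Legius syndrome, went from 126 and 173 CPM in siControl C2C12 cells to 75.6 and 82.9 CPM at day 3 and 59.4 and 77.6 CPM at day 6. The log2 changes were -0.96 (SE 0.20, adjusted p = 0.00381), short of the fold threshold, and -1.17 (SE 0.20, adjusted p = 0.00117), the latter lost without siControl replicate 1 or 2 (adjusted p = 0.0583 and 0.062). In siControl PMs Spred1 went from 102 and 109 CPM to 47.6 and 58.7 CPM at day 3 (log2 -1.04, SE 0.12, adjusted p = 3.46e-05) and 69.2 and 67.7 CPM at day 6 (log2 -0.69, SE 0.12, adjusted p = 0.000544). The day 3 value was -0.94 without siControl replicate 1 and -0.99 in the fit of all 24 libraries, both under the fold threshold.

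Spred2 fell more in PMs than in C2C12 cells. In siControl PMs it went from 76.4 and 90.6 CPM to 22.8 and 22.4 CPM at day 3 and 22.5 and 20.8 CPM at day 6, a 3.84-fold fall (log2 -1.94, SE 0.12, adjusted p = 6.26e-07) and a 4.04-fold fall (log2 -2.01, SE 0.12, adjusted p = 4.21e-07). The C2C12 siControl values went from 68.7 and 83.8 CPM to 50.8 and 54.5 CPM and 43.8 and 46.8 CPM, with log2 changes of -0.57 (SE 0.25, adjusted p = 0.0922) and -0.79 (SE 0.25, adjusted p = 0.0273), under the fold threshold. PMs minus C2C12 cells, the changes differed by -1.35 log2 units at day 3 (SE 0.29, adjusted p = 0.00392) and -1.19 at day 6 (SE 0.29, adjusted p = 0.0085), calls that were lost with either siControl replicate left out (adjusted p = 0.229 to 0.343). At day 0 Spred2 did not differ detectably between the cell types (log2 0.13, SE 0.20, adjusted p = 0.651), and it was 2.33-fold lower in PMs at day 3 (log2 -1.22, SE 0.21, adjusted p = 0.000143).

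Between siControl PMs and C2C12 cells, 2 of the 10 members passed at day 0 (Spry1 higher and Dusp5 lower in PMs) beside 26.8% of all genes, 2 at day 3 (Spry2 and Spred2 lower) beside 29.8%, and 5 at day 6 (Dusp5, Dusp6 and Spry4 higher, Mapk4 and Spred2 lower) beside 24.9%. The change from day 0 differed between the cell types for 4 members at day 3 (Dusp5, Spry1, Spry2 and Spred2) beside 11.2% of all genes and for 6 at day 6 (these with Mapk4 and Dusp6) beside 12.7%. These 5 comparisons reuse the siControl libraries of the changes over days and of each other. The day 3 count of 4 was 3 without siControl replicate 1 and 0 without replicate 2, and the day 6 count of 6 was 3 and 4. The lower Spry2 level of PMs at day 3 (log2 -1.15, SE 0.32, adjusted p = 0.00717) was lost without siControl replicate 1 or 2, and so was that of Spred2 at day 6 (log2 -1.06, adjusted p = 0.00065, against 0.0525 and 0.0843). Without siControl replicate 1, Dusp6 at day 0 (-1.21), Dusp5 at day 3 (1.18) and the difference in the day 3 change of Dusp6 (2.11) passed as well.

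The courses under siTead1/4 and siControl were not tested against each other. The siTead1/4 courses below start from the day 0 libraries of the contrast the members were chosen on. Their calls, that of Mapk6 above all, are therefore not independent of that choice. In siTead1/4 C2C12 cells Mapk6, Mapk4 and Spry1 rose and Dusp5 fell at both day 3 and day 6, 4 of 10 members beside 24.6% and 25.1% of all genes. In siTead1/4 PMs 6 members passed at day 3, Mapk4 and Spry1 upward and Dusp4, Spry4, Spred1 and Spred2 downward, beside 28.3%. At day 6 5 passed, Spry1 upward and Dusp4, Spry2, Spred1 and Spred2 downward, beside 31.9%. With 1 siTead1/4 replicate left out, the day 3 call of Mapk4 was lost in either case (adjusted p = 0.156 and 0.136), and without replicate 2 those of Spry4 at day 3 (-0.74) and of Spry2 (-0.89) and Spred1 (-0.98) at day 6 were lost too. Dusp5 in C2C12 cells fell by 1.66 (SE 0.22, adjusted p = 0.000451) and 2.02 (SE 0.23, adjusted p = 0.000137), and Mapk4 rose by 3.05 (SE 0.37, adjusted p = 0.000261) and 2.66 (SE 0.37, adjusted p = 0.000519). The Mapk4 day 3 value ranged from 2.46 without siTead1/4 replicate 2 to 4.02 without replicate 1, and the day 6 value was 3.52 without replicate 1.

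Set side by side, the siTead1/4 fold changes of the 9 members other than Mapk6 lay between -0.90 (Mapk4 at day 0) and 1.20 (Dusp4 at day 3) in C2C12 cells over the 3 days, and reached 1.04 (Mapk4 at day 3) in PMs. At day 0 in C2C12 cells 8 were negative, and Spry1 was positive at 1.10. The siTead1/4 libraries of Dusp6, Spry1, Spry2, Spry4 and Spred2 overlapped those of siControl there. At day 0 in PMs the 9 members lay between 0.09 (Dusp5) and 0.91 (Dusp6) and all were positive, with overlapping libraries for Spry4. None of the 9 passed the threshold at day 0 in either cell type. The median over all tested genes was 0.02 in C2C12 cells and -0.01 in PMs. Neither the signs nor the overlaps of all genes were counted. The signs and overlaps of the members thus have no share of all genes to be read against. When the siTead1/4 fold changes were subtracted between the cell types, 0.00591%, 1.25% and 0.0354% of all genes passed at days 0, 3 and 6. For Mapk6 the difference, PMs minus C2C12 cells, was 0.34 (SE 0.25) at day 0, -0.63 (SE 0.25) at day 3 and -0.08 (SE 0.25) at day 6. At day 0 the difference for Dusp6 was 1.43 (SE 0.40) and for Dusp4 1.10 (SE 0.33), and at day 3 that for Dusp4 was -1.32 (SE 0.33), and -1.88 without siTead1/4 replicate 1.

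Among the 12 libraries of each cell type the inhibitors varied together to different degrees, in log2 CPM. In PMs Spry4 and Spred1 (r = 0.950), Dusp4 and Spry4 (0.939) and Dusp4 and Spred1 (0.933) were the closest pairs, and Spry1 ran against Spred2 (r = -0.931) and Spred1 (-0.922). By rank (Spearman) these pairs were at 0.888, 0.937, 0.937, -0.399 and -0.706. In C2C12 cells Mapk4 and Spry1 were closest (r = 0.897), with Dusp5 and Spred1 next (0.864), and Dusp5 ran against Spry1 (r = -0.937). Their rank values were 0.783, 0.895 and -0.552, so the opposed pairs were less tight by rank. Mapk6 stood apart from these, with r between -0.155 and 0.513 in C2C12 cells and between -0.510 and -0.0649 in PMs. The points share day, siRNA and scaling, so these values only describe which genes have like profiles.

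Among the 5 genes of 16926 tested whose log2 level most resembled that of Mapk6 over all 24 libraries were Rabif (r = 0.861), Top3b (0.857), Abhd13 (0.856) and 2010321M09Rik (0.827). Top3b encodes a topoisomerase that acts on DNA and RNA, and Rabif a guanine nucleotide exchange factor-like partner of Rab GTPases. Rabif was at 30.9 and 33.0 CPM in siControl C2C12 cells at day 0 against 9.70 and 15.6 CPM with siTead1/4, and at 31.9 and 31.6 CPM against 12.8 and 16.1 CPM in PMs. Each of the 4 was lower in both day 0 siTead1/4 groups, with fitted log2 fold changes of -0.55 and -0.48 for 2010321M09Rik, -0.62 and -0.60 for Top3b, -1.22 and -0.99 for Abhd13 and -1.34 and -1.15 for Rabif in C2C12 cells and PMs. The measure of likeness is itself set by those libraries, and it says nothing of shared function.

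**Figure D4:**
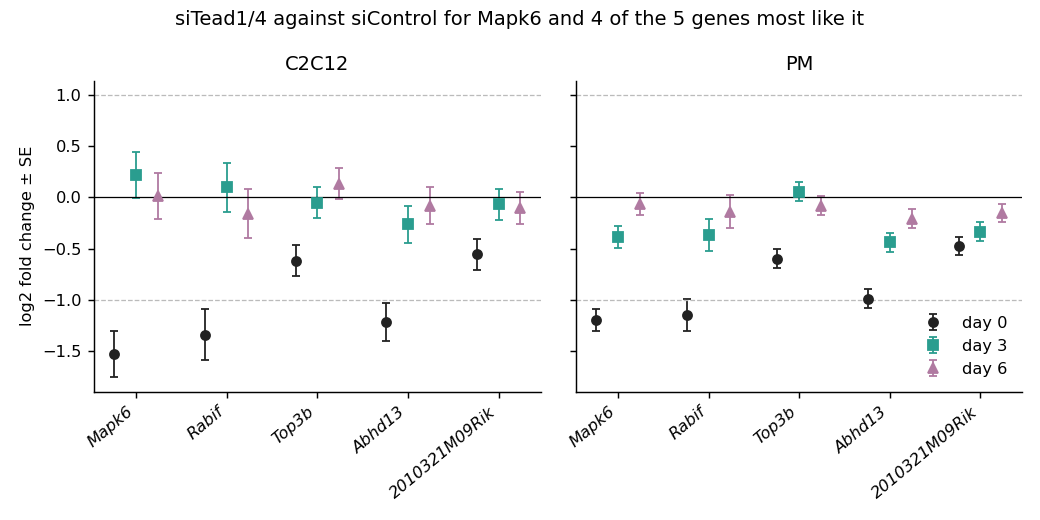
Log2 fold change of siTead1/4 against siControl (y axis, edgeR estimate with its SE as bars) for Mapk6 and 4 of the 5 genes most correlated with it over 24 libraries, at days 0, 3 and 6, in C2C12 cells and PMs. All 5 genes drawn have their lowest value at day 0 in both cell types, and Abhd13 in PMs is at -0.44 at day 3.

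The pathway around the members was described from fixed lists. Of 15 measured genes of the Ras, Raf, MEK and ERK cascade, none passed between siTead1/4 and siControl on any day in either cell type (edgeR). Only 0.0457% to 3.3% of all genes passed in these comparisons, so none passing says little about the list. At day 3 in siControl cells 1 of the 15 passed in each cell type, beside 28.7% of all genes in C2C12 cells and 32.3% in PMs. This was Ksr1, a scaffold of the cascade, which rose by 1.17 (SE 0.30, adjusted p = 0.0112) in C2C12 cells and 1.75 (SE 0.17, adjusted p = 8.22e-06) in PMs. The median log2 change of the list at day 3 was 0.14 and 0.12, beside -0.01 and 0.01 over all tested genes.

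Receptor tyrosine kinases, which feed the cascade, moved in both directions. Of 8 genes, Fgfr4, Erbb2 and Pdgfrb rose and Met fell at day 3 in siControl C2C12 cells, beside 28.7% of all genes called, while Erbb2 and Pdgfrb rose and Fgfr4 and Met fell in PMs, beside 32.3%. Fgfr4, the FGF receptor enriched in myogenic cells, went from 1.39 to 25.5 CPM in C2C12 cells (log2 4.16, SE 0.56, adjusted p = 0.000325) and from 172 to 61.6 CPM in PMs (log2 -1.54, SE 0.46, adjusted p = 0.0139). The change in PMs minus that in C2C12 cells was -5.69 log2 units (SE 0.78, adjusted p = 9.19e-05). Like Spry1, Fgfr4 was thus low in day 0 C2C12 cells and well expressed in day 0 PMs.

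Of 8 genes for partners of ERK3 and ERK4, none passed between siTead1/4 and siControl, beside 0.0457% to 3.3% of all genes. With shares this low, none passing says little about a list of this size. Mapkapk5 (MK5) was at 52.5 CPM in siControl and 48.7 CPM in siTead1/4 C2C12 cells at day 0 and at 43.9 and 42.4 CPM in PMs, in the same libraries in which Mapk6 was 2.89-fold and 2.30-fold lower. Over differentiation of siControl C2C12 cells Pak3, Usp20 and Ccnd3 rose at day 3, beside 28.7% of all genes called. Ccnd3, the cyclin D of differentiated myotubes and a described ERK3 interactor, rose from 95.1 to 514 CPM (log2 2.39, SE 0.35, adjusted p = 0.000492), whereas in PMs it was 463 CPM at day 0 and 485 CPM at day 3. Pak1, a kinase that phosphorylates the ERK3 activation loop, fell in PMs by 1.25 (SE 0.11, adjusted p = 5.43e-06).

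Of 12 other negative regulators of the pathway, 4 passed at day 3 in each cell type, a share near that of all genes (28.7% and 32.3%). Il17rd (Sef) rose and Dusp2, Dusp9 and Errfi1 fell in siControl C2C12 cells, and Il17rd rose and Dusp9, Errfi1 and Rasa1 fell in PMs. Dusp9, a cytoplasmic ERK phosphatase of the same subfamily as Dusp6, went from 27.1 to 3.63 CPM in C2C12 cells (log2 -2.95, SE 0.31, adjusted p = 7.45e-05) and from 21.0 to 4.55 CPM in PMs (log2 -2.27, SE 0.21, adjusted p = 6.28e-06). Its fall in PMs was thus opposite in sign to the rise of Dusp6.

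Transcripts known to respond to ERK were described as a list, while ERK activity itself was not measured. Of 18, 3 rose and 4 fell at day 3 in siControl C2C12 cells, with a median log2 change of -0.42 beside -0.01 over all genes, and 5 rose and 5 fell in PMs, with a median of 0.13 beside 0.01. The shares of all genes called were 28.7% and 32.3%. At day 6 2 rose and 6 fell in C2C12 cells (median -0.73 beside -0.01, with 31.1% of all genes called) and 9 rose and 5 fell in PMs (median 0.96 beside 0.03, with 35.5%). Fosl1, Etv4, Ccnd1 and Epha2 fell and Egr2 and Egr3 rose in both cell types at both days. Fosl1, an AP-1 subunit, went from 36.6 to 1.05 CPM in C2C12 cells by day 3 (log2 -5.16, SE 0.38, adjusted p = 8.21e-06) and from 15.7 to 2.00 CPM in PMs (log2 -3.03, SE 0.21, adjusted p = 1.08e-06). Fos, an immediate early gene, was at 3.06, 13.5 and 29.4 CPM in siControl PMs at days 0, 3 and 6, a rise by day 6 (log2 3.19, SE 0.24, adjusted p = 1.48e-06), and the fall of Ccnd1 by day 6 was 3.00 log2 units smaller in PMs than in C2C12 cells (SE 0.40, adjusted p = 5.7e-05).

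With siTead1/4, 3 of these 18 transcripts passed in PMs at day 0, Fos, Egr2 and Egr3, all higher, and 4 at day 3, Etv1, Phlda1, Ccnd1 and Epha4, all higher, beside 2.6% and 3.3% of all genes. In C2C12 cells Ccnd1 passed at day 3, beside 1.27% of all genes. The authors report Tead4 sites upstream of Ccnd1 in C2C12 cells and propose that Tead4 may repress it. What raised Ccnd1 here was not tested. Fos was at 3.06 CPM in siControl and 9.01 CPM in siTead1/4 PMs at day 0 (log2 1.54, SE 0.23) and Egr3 at 1.09 and 5.32 CPM (log2 2.31, SE 0.39). Ccnd1 at day 3 was at 15.3 CPM in siControl and 39.4 CPM in siTead1/4 C2C12 cells (log2 1.34, SE 0.26) and at 90.0 and 193 CPM in PMs (log2 1.10, SE 0.27). No gene of the list was lower past the threshold. Of the members only Mapk6 passed in PMs at day 0, where it was lower, and Dusp6 and Spry2 did not pass. Any link between these transcripts and the members was not tested.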

How the data were processed

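The authors deposited raw counts per gene, made with TopHat2 2.0.10, Bowtie2 2.1.0 and HTSeq 0.6.1 on mm9 according to the processing notes, from poly-A libraries whose kit does not keep strand. The deposited table also gives another length value per gene, whose derivation is not given in the sources used here and which served only for levels per kilobase. Its 36 columns of 12 libraries that are not listed were not used, and neither were the authors' normalized values of the listed libraries. From the deposited counts, edgeR 4.0.16 (R 4.3.3) was run with TMM scaling, filterByExpr, 1 mean per group and the quasi-likelihood test. It was fitted on the 12 libraries of each cell type, and on all 24 for differences between cell types. The p-values were adjusted by Benjamini-Hochberg over all 15303, 16144 or 16926 genes tested, and a call needed an adjusted p below 0.05 and an absolute log2 fold change above 1. SEs follow from the F statistic. With 2 replicates per group, SDs are rough. Correlations used log2 CPM with a prior count of 2. Some genes that the naming rule picks are not reported here.

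The members and gene lists were chosen with earlier results of these data known. All 10 members passed the filter in each fit. Their values, the sum of Tead1 and Tead4, and values of the list genes with the largest siControl day 3 change are named. On simulated counts with a log2 change of 2, 171 of 200 changed genes were called for day 3 against day 0 in C2C12 cells and 175 of 196 in PMs, with 4 and 3 false calls, and 142 of 198 for the difference between the cell types, with 1. Alternatives were DESeq2 1.42.0, RLE size factors, no filter, other sets of libraries, a replicate block, no minimum fold change and leaving out each replicate of an siRNA at all days. Where that left 1 library in a group, it was assumed to vary like the rest.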

Additional observations from a re-analysis of the deposited data

Results flagged for a closer look

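The change from day 0 in siControl cells differed between PMs and C2C12 cells, by the test of the difference itself, for 10 pairs of gene and day. Of all genes, 11.2% were called for this difference at day 3 and 12.7% at day 6. At day 3, in log2 units of PMs minus C2C12 cells, the difference was 1.85 for Dusp5, -5.00 for Spry1, -1.67 for Spry2 and -1.35 for Spred2. At day 6 it was -2.30 for Mapk4, 2.68 for Dusp5, 2.54 for Dusp6, -5.40 for Spry1, -1.38 for Spry2 and -1.19 for Spred2. As given above, leaving out a siControl replicate ended the calls of Dusp5, Spry1, Spry2 and Spred2 at day 3. It also ended those of Mapk4, Spry2 and Spred2 at day 6. Dusp6 and Spry2 had estimates of opposite sign in the cell types, of which only those in PMs passed the test. Groups of 2 libraries were too small for a test of single outlying samples.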

How the results depend on the processing

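Of 2320 alternative values of the members' log2 fold changes, 2236 stayed on their side of the threshold, 50 lost and 34 gained a call, and no called value changed sign, while 78 uncalled values did. The number of members called moved as follows, where the siTead1/4 against siControl counts are of the contrast the members were chosen on and support nothing. Leaving out 1 replicate of an siRNA gave 0 to 2 for siTead1/4 against siControl in C2C12 cells at day 0 and 0 to 1 at day 3, 1 to 2 in PMs at day 0 and 0 to 1 at day 3. For siControl days 3 and 6 against day 0 it gave 2 to 5 and 3 to 6 in C2C12 cells, for days 6 against 3 in PMs 0 to 1, and for siTead1/4 PMs at day 6 against day 0 3 to 6. For PMs against C2C12 cells it gave 1 to 2 at day 3 and 2 to 5 at day 6, for the difference in siTead1/4 effect 0 to 1 at day 3, and for the difference in change 0 to 4 at day 3 and 3 to 6 at day 6. These fits leave 1 library in the groups concerned, so fewer degrees of freedom are part of their construction.

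With only the libraries compared, 0 members were called for siTead1/4 in C2C12 cells at day 0 and for days 6 against 3 in PMs. In the fit of all 24 libraries, 1 was called for siTead1/4 in C2C12 cells at day 3 and 0 for days 6 against 3 in PMs. DESeq2 and the fit with no filter each called 1 for siTead1/4 in C2C12 cells and in PMs at day 3 and for the difference in siTead1/4 effect at day 3. DESeq2 also called 1 for that difference at day 6, and the fit with no filter 1 at day 0. With no minimum fold change the counts were 3 and 1 for siTead1/4 in PMs at days 0 and 3, 8 for siControl PMs at day 6 against day 0, 3 for days 6 against 3, and 4 for PMs against C2C12 cells at days 0 and 3. Where the construction does not show it, the cause was not tested.

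The replicate numbers were not taken to pair the libraries, since not every pair of groups passed a correlation of 0.1: deviations of same-numbered libraries correlated at -0.168 to 0.468 over 15 pairs of groups in C2C12 cells, with 6 above 0.1, and at 0.0548 to 0.503 in PMs, with 14 above 0.1. With the number as a replicate block, 1 member was called for siTead1/4 in PMs at day 3 (Mapk4, 1.05) and 1 for the difference in siTead1/4 effect at day 3 (Dusp4, -1.28). The block also added Spry1 for PMs against C2C12 cells at day 3 (1.08, adjusted p = 0.0274 with edgeR) and dropped Spry2 from the day 6 difference in change (adjusted p = 0.0564), as did RLE size factors (adjusted p = 0.0533), and changed no other member call. RLE size factors moved the median of all genes by at most 0.04.

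The number of all genes called differed by over 1.5 times from the reported fit in 89 of 232 fits. For siTead1/4 in C2C12 cells it was 67 at day 0 as reported, 255 with DESeq2, 480 with no filter, 245 in the fit of all 24 libraries, 0 with only the libraries compared and 0 without either siControl replicate. In PMs at day 0 it was 420 as reported, 204 in the fit of all 24 libraries and 120 to 171 with a replicate left out. For days 6 against 3 in C2C12 cells it was 0 as reported, 19 with DESeq2 and 102 with no filter. Depth limits Mapk4, with 7 to 267 counts per library, and Spry1 in day 0 C2C12 cells, with 8 to 46.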
